A study of Mus musculus with 24 samples.

Results

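The interferon-stimulated genes are 41 genes, listed by symbol, whose transcription is known to be switched on by interferons. All 41 were found among the 54532 gene identifiers of the count files, all had at least 10 counts in total, and all 41 were among the 17286 genes with enough counts to be tested. They were sorted by role into 11 genes that mainly mark a type I interferon response (Ifit, Oas, Mx and Isg15), 11 GTPases best known as targets of interferon gamma (Gbp, Irgm, Igtp, Iigp1 and Tgtp), 6 regulators, 4 nucleic acid sensors and 9 other effectors. The tissue was whole mouse kidney, measured by bulk RNA sequencing, so that fewer cells of a type and less RNA per cell cannot be told apart.

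The study compared mice that lack Lrp2 in proximal tubule cells with wild-type littermates. Lrp2 encodes megalin, with which proximal tubule cells take up filtered proteins. There were 4 groups of 6 libraries each: knockout after 2 weeks of Western diet, wild type after 2 weeks, knockout after 12 weeks and wild type after 12 weeks. All 4 groups thus received the diet, and the series title names tubulointerstitial nephritis as the outcome. The labels write the genotypes as PTC LRP2-SM22 -/- and +/+ and do not explain SM22. The sources used here do not give the promoter that drives the deletion, nor the age and sex of the mice. Nothing in the labels ties each library to its own mouse, and p-values therefore measure the spread between these samples, which may be technical.

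Interferons are secreted proteins that warn cells of infection or tissue damage. Type I interferons act through Ifnar1 and Ifnar2 and a complex with Stat2 and Irf9 that binds the interferon-stimulated response element. Interferon gamma acts through Ifngr1 and Ifngr2, and its signal reaches genes through the gamma-activated site. In the kidney, tubule cells as well as immune cells can respond to interferons, and many targets answer to either kind.

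The promoters are shown first because they can carry the response element and the gamma-activated site named above. RefSeq promoters of build GRCm38.p6, each from 250 bases before to 50 bases after a transcription start, were available for 31 of the 41 members (36 promoters). None was available for Mx1, Mx2, Oas2, Iigp1, Gbp6, Usp18, Dhx58, Zbp1, Parp9 and Parp14. For 25 of the 36 promoters the first 20 transcribed bases were found in an annotated transcript of the gene. Capitals mark the core of the response element, GAAANNGAAA or TTTCNNTTTC on the other strand, and the gamma-activated site, TTCNNNGAA, which reads the same on both strands. The printed stretches end at the base before the start. They are chr4:156200819-156200938 on the minus strand for Isg15, chr19:34640769-34640888 on the plus strand for Ifit1, chr5:120907526-120907645 on the minus strand for Oas1a and chr12:26456453-26456577 on the minus strand for Rsad2. For the GTPases they are chr11:58199436-58199555 (plus) for Igtp, chr11:58214857-58214976 (plus) for Irgm2, chr11:48992247-48992366 (minus) for Tgtp1 and chr11:49064213-49064332 (minus) for Tgtp2.
Isg15: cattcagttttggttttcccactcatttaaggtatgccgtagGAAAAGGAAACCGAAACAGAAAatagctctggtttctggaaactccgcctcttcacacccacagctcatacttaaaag
Ifit1: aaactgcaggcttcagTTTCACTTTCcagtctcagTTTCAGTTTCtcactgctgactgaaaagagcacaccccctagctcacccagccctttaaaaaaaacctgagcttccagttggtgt
Oas1a: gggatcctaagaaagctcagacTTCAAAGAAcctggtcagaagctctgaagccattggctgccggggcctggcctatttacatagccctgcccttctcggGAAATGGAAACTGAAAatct
Rsad2: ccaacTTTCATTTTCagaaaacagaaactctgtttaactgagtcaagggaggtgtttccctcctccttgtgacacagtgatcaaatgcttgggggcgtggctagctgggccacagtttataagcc
Igtp: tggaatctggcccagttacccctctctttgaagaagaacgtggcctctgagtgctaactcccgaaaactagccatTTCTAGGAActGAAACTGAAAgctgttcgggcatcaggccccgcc
Irgm2: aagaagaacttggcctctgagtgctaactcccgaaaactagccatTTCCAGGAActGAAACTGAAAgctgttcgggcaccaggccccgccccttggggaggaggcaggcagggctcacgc
Tgtp1: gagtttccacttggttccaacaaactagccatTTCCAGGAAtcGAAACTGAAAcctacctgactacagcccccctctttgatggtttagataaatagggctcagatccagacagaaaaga
Tgtp2: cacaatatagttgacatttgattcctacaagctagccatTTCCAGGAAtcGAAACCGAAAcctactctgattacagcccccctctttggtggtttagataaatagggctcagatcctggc

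A response element core was found in the promoters of 20 of the 31 members (64.5%), against 3.99% of the 27025 genes in the promoter table. It was present in 9 of 9 GTPases and in 5 of 8 type I genes. A gamma-activated site was found in 13 of 31 members (41.9%), against 9.55% of all genes, and in 6 of 9 GTPases against 2 of 8 type I genes. It was also present in 2 of 5 regulators and 3 of 7 other effectors, and in 0 of 2 sensors. In the promoters printed above, Isg15 holds 3 overlapping cores and Ifit1 holds 2 on the other strand, with no gamma-activated site in either stretch. The stretch of Oas1a, also a type I gene, holds 2 overlapping cores and 1 gamma-activated site. The 4 printed GTPase promoters share another layout, in which a gamma-activated site is followed after 2 bases by a response element core. This layout, looked for after the sequences had been seen, occurred in 5 genes of the table (0.0185%): Igtp, Irgm2, Tgtp1, Tgtp2 and the predicted gene Gm12185. These 4 members are GTPases with related sequences, so they are not independent examples of the layout or of the gamma-activated site. The other GTPases with a gamma-activated site were Gbp5 and Gbp7. A match describes letters and does not show binding.

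**Figure D1:**
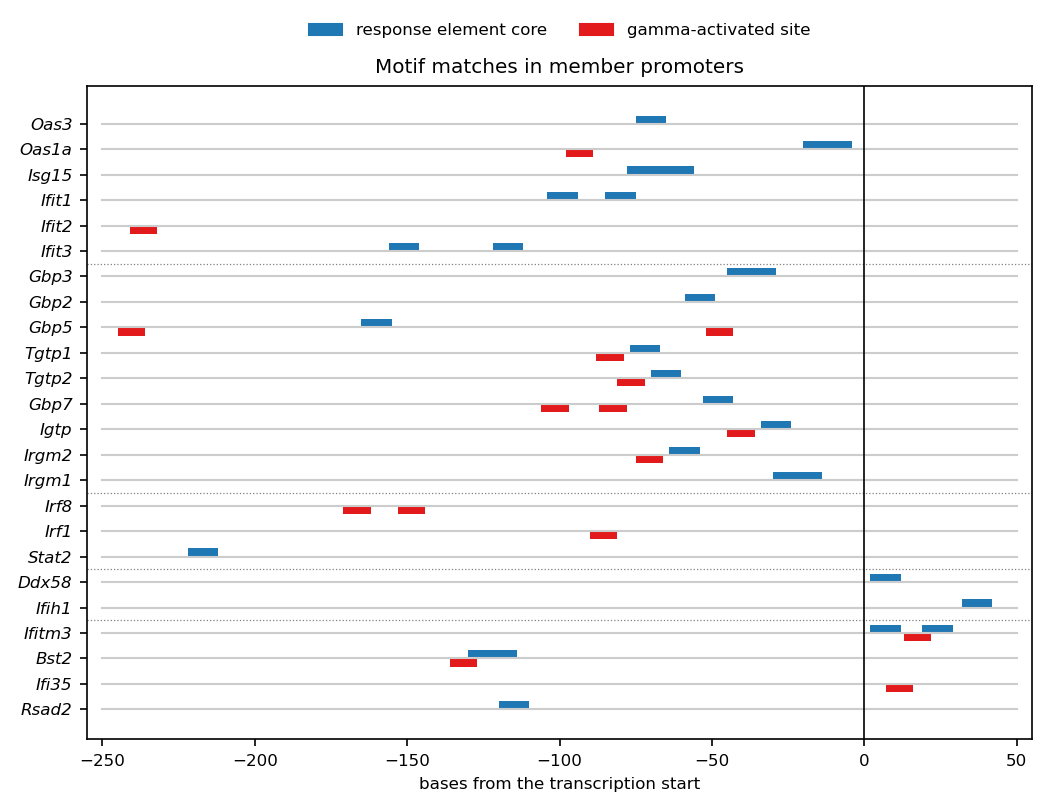
Positions of motif matches in the member promoters that hold at least 1, drawn from 250 bases before to 50 after the transcription start (x axis, bases from the start). Blue bars are response element cores and red bars gamma-activated sites; the 24 genes shown are grouped by role class. All 9 GTPase promoters have a blue bar and 6 have a red bar.

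Lrp2 itself was at 192 to 584 CPM (median 337 CPM) in knockout, against 1590 to 2290 CPM (median 2040 CPM) in wild type, at 2 weeks. At 12 weeks it was at 186 to 390 CPM (median 343 CPM) in knockout, against 1410 to 2500 CPM (median 1770 CPM) in wild type. CPM are counts scaled to the library size after adjustment by the trimmed mean of M values (TMM). Knockout and wild type did not overlap, with log2 fold changes of -2.49 ± 0.23 (SE) and -2.51 ± 0.18. Libraries held 16.3 to 25.2 megacounts in knockout and 15.6 to 34.1 in wild type at 2 weeks, and 11.3 to 15.2 in knockout and 11.4 to 14.5 in wild type at 12 weeks. Proximal tubule markers, summed over 7 genes, were at 3990 to 6230 CPM in knockout, against 6670 to 10500 CPM in wild type over both durations, so the tissue carried kidney transcripts throughout. The library of knockout replicate 2 at 12 weeks had the highest value of its group for 41 of 41 members, and without it 36 members were higher at 12 weeks, with a median log2 fold change of 0.77. At 2 weeks knockout replicate 5 was the highest of its group for 33 of 41 members, and at 12 weeks wild-type replicate 5 was the lowest for 24 of 41.

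At 2 weeks 36 of 41 members were higher in knockout at an adjusted p under 0.05 (edgeR quasi-likelihood test, Benjamini-Hochberg adjusted over all genes), none was lower and 5 were not called, while 18.2% of all tested genes were higher. At 12 weeks 37 of 41 were higher, none was lower and 4 were not called, against 20.7% of all tested genes. The median log2 fold change of the members was 0.94 at 2 weeks and 1.08 at 12 weeks, and the median of all tested genes was -0.01 at 2 weeks and 0.00 at 12 weeks. Every knockout library was above every wild-type library for 28 members at 2 weeks, against 10.3% of all tested genes, and for 26 members at 12 weeks, against 10.1%. For 22 members this held at both durations, which can be true of at most 10.1% of all tested genes. Of these 22 members, 8 were type I genes and 3 were GTPases.

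**Figure D2:**
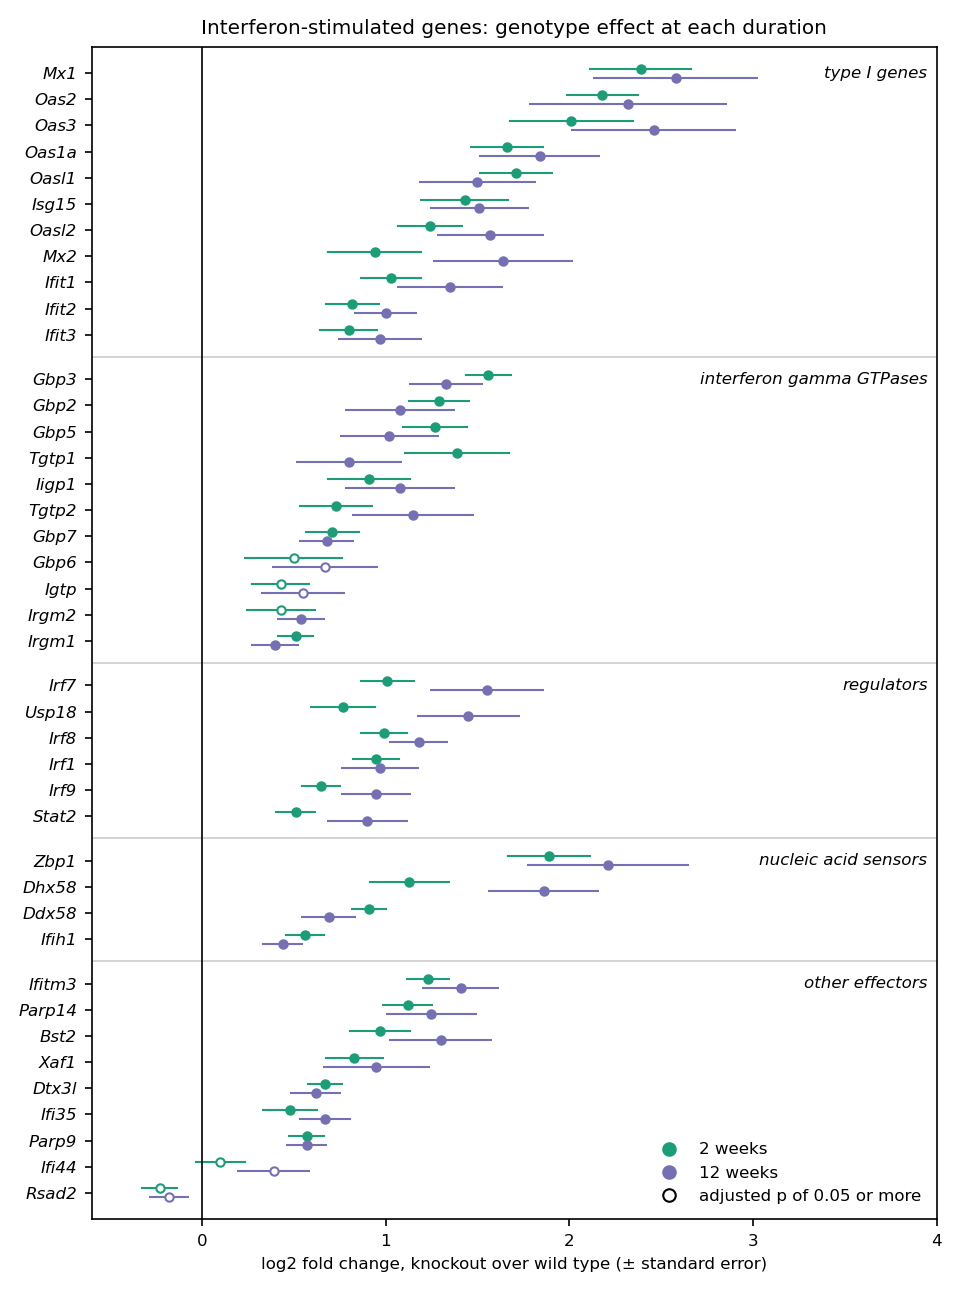
Log2 fold change of each member, knockout over wild type (x axis, with the standard error as bars), at 2 weeks (green) and 12 weeks (purple), with members listed by role class on the y axis. Filled points passed an adjusted p under 0.05 and open points did not. Type I genes reach 2.39 and 2.58 at their top, the GTPases 1.56 and 1.33, and Rsad2 lies below 0 at both durations.

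All 11 type I genes were higher in knockout at both durations, with a median log2 fold change of 1.43 (2.70-fold) at 2 weeks and 1.57 (2.97-fold) at 12 weeks. Mx1, a dynamin-like GTPase that interferes with replication of influenza-type viruses, lies at chr16:97447035-97462907 (mm10). At 2 weeks its lowest, median and highest libraries were 2.63, 4.89 and 7.20 CPM in knockout, against 0.497, 0.856 and 1.39 CPM in wild type. At 12 weeks they were 4.18, 6.90 and 19.2 CPM in knockout, against 0.419, 1.72 and 2.30 CPM in wild type. The groups stood apart at both durations, and knockout replicate 2 was the highest knockout library at 12 weeks. The log2 fold change was 2.39 ± 0.28 (SE; adjusted p = 4.1e-06) at 2 weeks and 2.58 ± 0.45 (adjusted p = 0.00072) at 12 weeks. Without knockout replicate 2 the 12-week value was 2.19 (adjusted p = 0.00036).

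Oas2, an oligoadenylate synthetase that answers double-stranded RNA by making the activator of RNase L, lies at chr5:120730333-120749853. It had 10.1, 14.0 and 19.5 CPM in knockout, against 2.24, 2.71 and 5.07 CPM in wild type at 2 weeks (lowest, median and highest library). Its 12-week values were 9.41, 19.8 and 35.7 CPM in knockout, against 0.305, 4.10 and 7.61 CPM in wild type. Again no knockout library reached down to the wild-type range, and the lowest wild-type value at 12 weeks was that of replicate 5. The log2 fold change was 2.18 ± 0.20 (SE; adjusted p = 2.3e-07) at 2 weeks and 2.32 ± 0.54 (adjusted p = 0.0062) at 12 weeks. Oas3 and Oas1a, of the same enzyme family, followed with log2 fold changes of 2.01 and 1.66 at 2 weeks and 2.46 and 1.84 at 12 weeks.

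Isg15, the ubiquitin-like protein that is attached to other proteins after interferon exposure, lies at chr4:156199424-156200818. Isg15 had 4.08, 8.19 and 12.1 CPM in knockout, against 2.29, 3.32 and 3.61 CPM in wild type at 2 weeks. At 12 weeks it had 5.99, 8.06 and 18.0 CPM in knockout, against 2.18, 3.29 and 4.52 CPM in wild type. Knockout and wild-type libraries did not overlap at either duration, and its log2 fold change was 1.43 ± 0.24 (adjusted p = 0.00017) at 2 weeks and 1.51 ± 0.27 (adjusted p = 0.00064) at 12 weeks. The smallest difference of the class belonged to Ifit3, part of the complex of Ifit proteins that binds foreign RNA, at chr19:34583531-34588731. Ifit3 had 20.4, 26.9 and 40.3 CPM in knockout, against 15.3, 16.4 and 21.5 CPM in wild type at 2 weeks, where 5 of 6 knockout libraries exceeded the highest wild-type library. At 12 weeks it had 23.5, 31.5 and 58.5 CPM in knockout, against 12.3, 19.6 and 23.3 CPM in wild type, and all 6 knockout libraries stood above. Its log2 fold change was 0.80 ± 0.16 (adjusted p = 0.0010) and 0.97 ± 0.23 (adjusted p = 0.0049). The other type I genes, Ifit1, Ifit2, Mx2, Oasl1 and Oasl2, ranged from 0.82 to 1.71 at 2 weeks and from 1.00 to 1.64 at 12 weeks.

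Of the 11 interferon gamma GTPases 8 were higher at 2 weeks, with a median log2 fold change of 0.73 (1.66-fold). At 12 weeks 9 of 11 were higher, with a median of 0.80 (1.74-fold), which came to 0.52 without knockout replicate 2. Gbp3, a guanylate-binding protein of the family that coats the vacuoles of intracellular pathogens, lies at chr3:142560026-142573209. Its lowest, median and highest libraries were 21.8, 27.7 and 37.3 CPM in knockout, against 8.79, 9.58 and 10.8 CPM in wild type at 2 weeks. At 12 weeks they were 22.9, 29.6 and 52.3 CPM in knockout, against 9.14, 13.7 and 16.7 CPM in wild type. The wild-type libraries lay close together below all knockout libraries at 2 weeks, and the groups stayed apart at 12 weeks. The log2 fold change of Gbp3 was 1.56 ± 0.13 (adjusted p = 6.9e-08) and 1.33 ± 0.20 (adjusted p = 0.00027).

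Gbp2, of the same family, at chr3:142620602-142638008, had 18.1, 22.9 and 26.6 CPM in knockout, against 6.71, 8.55 and 15.7 CPM in wild type at 2 weeks. At 12 weeks it had 14.4, 19.7 and 49.7 CPM in knockout, against 8.22, 10.5 and 17.6 CPM in wild type, and 4 of 6 knockout libraries lay above the highest wild-type library. Its log2 fold change was 1.29 ± 0.17 (adjusted p = 1.6e-05) and 1.08 ± 0.30 (adjusted p = 0.013). Irgm1, a regulatory GTPase that keeps the effector GTPases off host membranes, had the smallest mean log2 fold change of the class. It lies at chr11:48861968-48871683. It had 46.8, 51.3 and 70.2 CPM in knockout, against 34.7, 36.9 and 47.8 CPM in wild type at 2 weeks, and 50.7, 57.2 and 93.9 CPM in knockout, against 40.7, 49.4 and 55.5 CPM in wild type at 12 weeks. In each comparison 5 of 6 knockout libraries exceeded the highest wild-type library. The log2 fold change was 0.51 ± 0.10 (adjusted p = 0.00078) and 0.40 ± 0.13 (adjusted p = 0.024), and 0.26 (adjusted p = 0.027) at 12 weeks without knockout replicate 2. The 12-week call was lost without knockout replicate 5 (0.38, adjusted p = 0.050) or wild-type replicate 4 (0.35, adjusted p = 0.051).

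Igtp and Irgm2, both regulatory GTPases of the Irgm1 kind, fell short of the threshold at 2 weeks, and Igtp also at 12 weeks. Igtp had 14.8, 18.3 and 22.6 CPM in knockout, against 10.9, 12.1 and 21.8 CPM in wild type at 2 weeks, and 12.9, 16.3 and 37.4 CPM in knockout, against 10.9, 13.3 and 16.8 CPM in wild type at 12 weeks. The groups overlapped at both durations, and the log2 fold change of Igtp was 0.43 ± 0.16 (adjusted p = 0.051) and 0.55 ± 0.23 (adjusted p = 0.077). By DESeq2 it was called at both durations (adjusted p = 0.040 and 0.046). It was also called at 2 weeks without knockout replicate 2 (adjusted p = 0.028), wild-type replicate 4 (adjusted p = 0.048) or wild-type replicate 6 (adjusted p = 0.0021), and at 12 weeks without knockout replicate 3 (adjusted p = 0.041). Irgm2 had 18.4, 22.4 and 26.1 CPM in knockout, against 11.8, 14.9 and 27.1 CPM in wild type at 2 weeks, and 26.1, 29.8 and 46.1 CPM in knockout, against 18.8, 22.6 and 25.8 CPM in wild type at 12 weeks. A single wild-type library, replicate 6, exceeded every knockout library at 2 weeks, and the groups did not overlap at 12 weeks. Its log2 fold change was 0.43 ± 0.19 (adjusted p = 0.092) and 0.54 ± 0.13 (adjusted p = 0.0037).

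Gbp6 was not called at either duration. It had 2.49, 3.26 and 6.32 CPM in knockout, against 1.86, 2.10 and 4.97 CPM in wild type at 2 weeks, and 3.62, 4.09 and 12.5 CPM in knockout, against 2.74, 3.48 and 4.24 CPM in wild type at 12 weeks. Its groups overlapped, with log2 fold changes of 0.50 ± 0.27 (adjusted p = 0.18) and 0.67 ± 0.29 (adjusted p = 0.079). The effector GTPases Tgtp1, Tgtp2 and Iigp1, which break up the vacuoles of intracellular parasites, had log2 fold changes of 1.39, 0.73 and 0.91 at 2 weeks and 0.80, 1.15 and 1.08 at 12 weeks. The call of Tgtp1 at 12 weeks was narrow (adjusted p = 0.042) and was lost without knockout replicate 2 (log2 fold change 0.48, adjusted p = 0.11). It was also lost without knockout replicate 4, 5 or 6 or wild-type replicate 3, 4, 5 or 6 (adjusted p = 0.054 to 0.084), and with all 24 libraries in 1 fit (adjusted p = 0.052). Gbp5 and Gbp7 were higher at both durations, with 1.27 and 0.71 at 2 weeks and 1.02 and 0.68 at 12 weeks.

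Single libraries moved the GTPase values. Wild-type replicate 6 at 2 weeks was the highest wild-type library for 10 of 11 GTPases but for only 2 of 11 type I genes, and without it all 11 GTPases were called, with a median log2 fold change of 0.86. In that library the summed level of 10 T and natural killer cell markers was also the highest of its group, at 8.57 CPM against 7.07 CPM in the next. Of these markers, only Cd4, Cd8a, Nkg7 and Gzmb were highest there. Cd3d was highest in wild-type replicate 2, and Cd3e and Cd3g in wild-type replicate 4. The sum of plasmacytoid dendritic cell markers was also highest in wild-type replicate 6 (3.97 CPM, next 3.67 CPM). Leaving out knockout replicate 2 at 12 weeks lowered the log2 fold change of 41 of 41 members. It fell by more than 1.5 times for 6 members, all of them GTPases. Besides the values of Irgm1 and Tgtp1 above, these were Gbp6 (0.67 with it and 0.25 without), Igtp (0.55 and 0.25), Iigp1 (1.08 and 0.68) and Tgtp2 (1.15 and 0.74). Such a ratio is reached more easily from a small value, and larger values of other classes fell too. Oas3 went from 2.46 to 2.00, Zbp1 from 2.21 to 1.75 and Mx1 from 2.58 to 2.19. In knockout replicate 2 at 12 weeks the B cell markers summed to 135 CPM, against 12.8 CPM in the next knockout library. Its T and natural killer cell markers summed to 69.3 CPM, against 26.9 CPM. It was also the highest of its group for summed macrophage markers (693 CPM, next 594 CPM) and fibroblast markers (1420 CPM, next 1410 CPM). Plasmacytoid dendritic cell markers were highest there too (8.53 CPM, next 6.67 CPM), and proximal tubule markers lowest (3990 CPM). At 2 weeks knockout replicate 5 was the highest knockout library for 10 of 11 GTPases. The T and natural killer cell sum of that group was highest in replicate 3 (18.7 CPM), and replicate 5 came next (17.5 CPM). Replicate 5 also came next to replicate 3 for macrophage markers (473 CPM, against 599 CPM) and neutrophil markers (23.4 CPM, against 25.1 CPM). The same held for fibroblast markers (955 CPM, against 1370 CPM). Its plasmacytoid dendritic cell sum was the lowest of the group (3.31 CPM). Ms4a1 and Cd79a mark B cells, and Cd3d, Cd3e and Cd3g T cells. The part of any of these cell types in the GTPase values was not tested.

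The contrast between the classes can also be read within each library. The class level is the mean log2 CPM of its 11 genes. The type I level was 3.08 ± 0.42 in knockout and 1.72 ± 0.16 in wild type at 2 weeks, and 3.54 ± 0.58 in knockout and 1.88 ± 0.60 in wild type at 12 weeks (SD, n = 6 each). The GTPase level was 3.89 ± 0.28 in knockout and 3.05 ± 0.31 in wild type at 2 weeks, and 4.16 ± 0.50 in knockout and 3.42 ± 0.20 in wild type at 12 weeks. The mean in knockout exceeded that in wild type by 1.36 for the type I genes and 0.85 for the GTPases at 2 weeks, and by 1.66 for the type I genes and 0.74 for the GTPases at 12 weeks. The GTPase level minus the type I level was 0.81 ± 0.23 in knockout and 1.33 ± 0.39 in wild type at 2 weeks, and 0.62 ± 0.22 in knockout and 1.54 ± 0.48 in wild type at 12 weeks. At 2 weeks this difference ran up to 1.13 in knockout and down to 1.00 in wild type, so the groups overlapped. At 12 weeks it ran up to 0.98 in knockout and down to 0.97 in wild type, an overlap of single libraries. Wild-type replicates 5 and 6 at 12 weeks had type I levels of 0.98 and 1.29, against 2.07 to 2.43 in the other wild-type libraries. Their differences were 2.16 and 2.07, against 0.97 to 1.54 in the others. No test is given, because the genes were listed with results known.

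**Figure D3:**
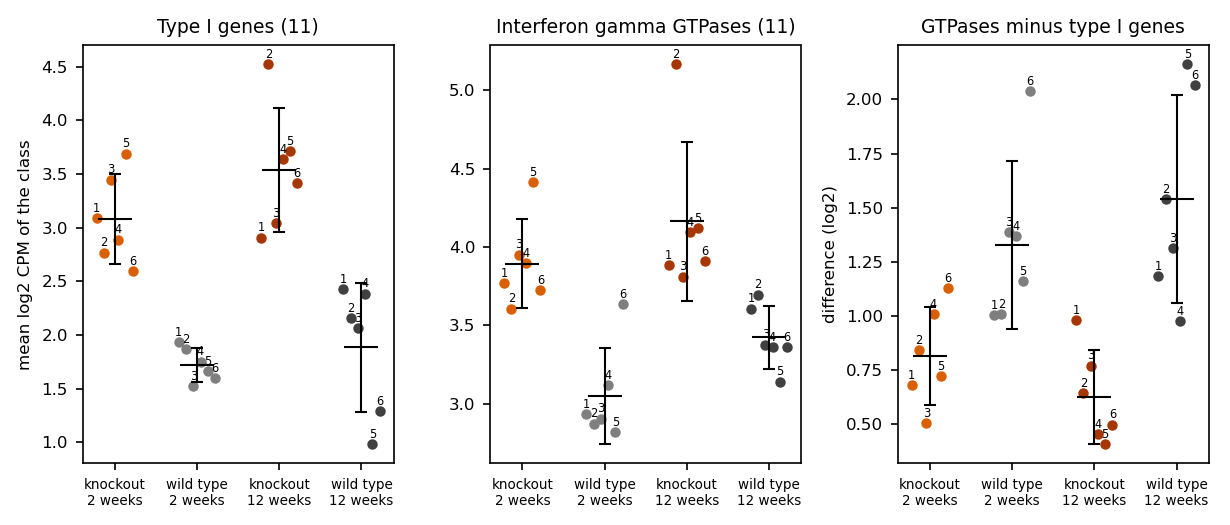
Mean log2 CPM of the 11 type I genes (left), of the 11 GTPases (middle) and their difference (right) in each of the 24 libraries, with replicate numbers, by group on the x axis. Horizontal marks and bars are the mean and SD of 6 libraries. The difference between the classes averages 0.81 in knockout and 1.33 in wild type at 2 weeks, and 0.62 in knockout and 1.54 in wild type at 12 weeks.

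All 6 regulators were higher in knockout at both durations, with medians of 0.86 at 2 weeks and 1.08 at 12 weeks. Irf7, the transcription factor that amplifies type I interferon production, lies at chr7:141262706-141266481. Irf7 had 14.1, 23.1 and 28.8 CPM in knockout, against 10.4, 11.5 and 12.6 CPM in wild type at 2 weeks, and 31.7, 43.6 and 99.0 CPM in knockout, against 7.72, 18.8 and 23.0 CPM in wild type at 12 weeks. Its groups did not overlap, and its log2 fold change was 1.01 ± 0.15 (adjusted p = 6.4e-05) and 1.55 ± 0.31 (adjusted p = 0.0025). Usp18, which strips Isg15 from proteins and damps the type I receptor, had 4.26, 5.64 and 8.23 CPM in knockout, against 3.02, 3.26 and 5.03 CPM in wild type at 2 weeks, and 5.30, 9.53 and 18.0 CPM in knockout, against 2.44, 3.79 and 4.88 CPM in wild type at 12 weeks. At 2 weeks 4 of 6 knockout libraries lay above wild type and at 12 weeks all 6, with log2 fold changes of 0.77 ± 0.18 (adjusted p = 0.0029) and 1.45 ± 0.28 (adjusted p = 0.0010). Stat2, a transcription factor of the type I pathway, had the smallest mean log2 fold change of the class. It had 29.5, 36.7 and 47.5 CPM in knockout, against 23.8, 25.4 and 29.2 CPM in wild type at 2 weeks, and 34, 53.5 and 89.2 CPM in knockout, against 23.6, 30.8 and 36.0 CPM in wild type at 12 weeks. The groups overlapped only at 12 weeks, by 1 knockout library, and the log2 fold change was 0.51 ± 0.11 (adjusted p = 0.0012) and 0.90 ± 0.22 (adjusted p = 0.0060). Irf1, the factor induced through the gamma-activated site, Irf8, a factor of myeloid cells, and Irf9, a part of the type I complex, ranged from 0.65 to 0.99 at 2 weeks and from 0.95 to 1.18 at 12 weeks.

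All 4 sensors were higher at both durations, with medians of 1.02 at 2 weeks and 1.28 at 12 weeks. Zbp1, which recognises left-handed nucleic acids and can start necroptosis, lies at chr2:173206612-173218923. Zbp1 had 4.58, 5.81 and 11.2 CPM in knockout, against 1.51, 1.80 and 2.55 CPM in wild type at 2 weeks, and 5.58, 9.12 and 29.1 CPM in knockout, against 1.01, 3.0 and 3.74 CPM in wild type at 12 weeks. The groups stood apart at both durations, and the log2 fold change was 1.89 ± 0.23 (adjusted p = 4.6e-06) and 2.21 ± 0.44 (adjusted p = 0.0019). Dhx58, or LGP2, which tunes the RNA helicase sensors, had 3.87, 5.49 and 8.70 CPM in knockout, against 1.55, 2.92 and 3.51 CPM in wild type at 2 weeks, and 5.82, 9.72 and 20.5 CPM in knockout, against 1.93, 3.09 and 4.29 CPM in wild type at 12 weeks. Its groups did not overlap either, with log2 fold changes of 1.13 ± 0.22 (adjusted p = 0.00054) and 1.86 ± 0.30 (adjusted p = 0.00036). Ifih1, or MDA5, the sensor of long double-stranded RNA, had the smallest mean log2 fold change of the class. It had 18.4, 20.9 and 27.2 CPM in knockout, against 12.2, 15.9 and 16.7 CPM in wild type at 2 weeks, and 23.9, 25.9 and 35.1 CPM in knockout, against 16.7, 20 and 24.6 CPM in wild type at 12 weeks. At 12 weeks 3 of 6 knockout libraries lay above the wild-type range, and the log2 fold change was 0.56 ± 0.11 (adjusted p = 0.00078) and 0.44 ± 0.11 (adjusted p = 0.0050). Ddx58, or RIG-I, the sensor of uncapped RNA ends, lay at 0.91 and 0.69.

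**Figure D4:**
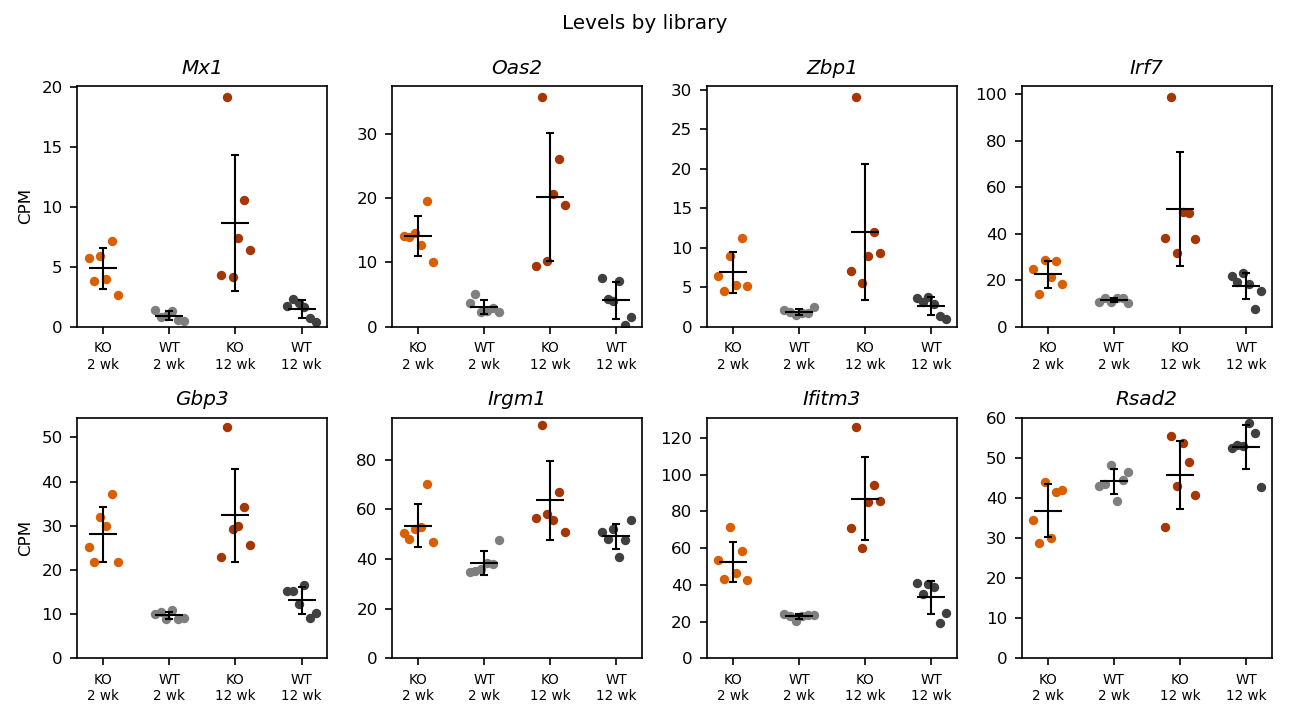
CPM of 8 members in each library (points), by group on the x axis (KO knockout, WT wild type, wk weeks of diet), with the mean and SD of 6 libraries. Mx1, Oas2, Zbp1, Irf7, Gbp3 and Ifitm3 show knockout libraries above all wild-type libraries at both durations, Irgm1 overlaps, and the values of Rsad2 overlap with no call.

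Of the 9 other effectors 7 were higher at each duration, with a median of 0.67 at both. Ifitm3, a membrane protein that blocks fusion of entering viruses, lies at chr7:141009586-141010770. Ifitm3 had 42.8, 49.8 and 71.3 CPM in knockout, against 20.2, 23.3 and 23.9 CPM in wild type at 2 weeks, and 59.9, 85.5 and 126 CPM in knockout, against 19.4, 36.8 and 41.2 CPM in wild type at 12 weeks. Its groups did not overlap, and its log2 fold change was 1.23 ± 0.12 (adjusted p = 3.3e-07) and 1.41 ± 0.21 (adjusted p = 0.00033). Parp14, an ADP-ribosyltransferase, had 31.7, 41 and 64.5 CPM in knockout, against 17.9, 19.6 and 22.6 CPM in wild type at 2 weeks, and 37.9, 57.2 and 110 CPM in knockout, against 20.6, 26.8 and 34.6 CPM in wild type at 12 weeks. Here too all knockout libraries were above wild type, with log2 fold changes of 1.12 ± 0.14 (adjusted p = 1.3e-05) and 1.25 ± 0.25 (adjusted p = 0.0020). Bst2 (tetherin, which holds budding viruses at the membrane), Xaf1, Ifi35 and the partners Parp9 and Dtx3l ranged from 0.48 to 0.97 at 2 weeks and from 0.57 to 1.30 at 12 weeks.

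Rsad2 and Ifi44 were not called at either duration. Rsad2 encodes viperin, an antiviral enzyme that makes a chain-terminating nucleotide, and lies at chr12:26442746-26456452. It had 28.9, 38.1 and 44.1 CPM in knockout, against 39.2, 44.1 and 48.4 CPM in wild type at 2 weeks, and 32.9, 46.0 and 55.5 CPM in knockout, against 42.9, 53.2 and 58.7 CPM in wild type at 12 weeks. No knockout library exceeded the highest wild-type library at either duration, and the groups overlapped. Its log2 fold change was -0.23 ± 0.10 (adjusted p = 0.098) and -0.18 ± 0.11 (adjusted p = 0.24). Without knockout replicate 3 it was called lower at 2 weeks (-0.29, adjusted p = 0.037). The stretch of its promoter printed above holds 1 response element core. Ifi44 had 12.2, 20.5 and 24.5 CPM in knockout, against 16.1, 18.5 and 22.9 CPM in wild type at 2 weeks, and 20.5, 30.4 and 39.7 CPM in knockout, against 15.7, 23.4 and 31.2 CPM in wild type at 12 weeks. The ranges overlapped widely, with log2 fold changes of 0.10 ± 0.14 (adjusted p = 0.63) and 0.39 ± 0.20 (adjusted p = 0.14). Per kilobase of exonic length, the mean level of Rsad2 was 8.51 CPM in knockout, against 10.2 CPM in wild type, at 2 weeks, and 10.6 CPM in knockout, against 12.2 CPM in wild type, at 12 weeks. Ranked by this measure among the 41 members, Rsad2 was at place 10 in knockout and 3 in wild type at 2 weeks, and at place 8 in knockout and 3 in wild type at 12 weeks. Mx1 had 1.29 CPM per kilobase in knockout and 0.241 in wild type at 2 weeks, and Oas3, the lowest of all in each group, had 0.246 in knockout and 0.0604 in wild type. Ifitm3 was the highest in every group, at 77.5 CPM per kilobase in knockout and 33.8 in wild type at 2 weeks and at 128 in knockout and 49.1 in wild type at 12 weeks.

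The genotype effect was not shown to depend on the duration of the diet. 36 members were higher in knockout at both durations, against 14.5% of all tested genes, and Irgm2 was called only at 12 weeks. The interaction of genotype and duration over all 24 libraries was called for 0 of 41 members, against 0.174% of all tested genes. By DESeq2 the count was also 0, and by edgeR none of the 41 had an unadjusted p under 0.05. The smallest adjusted p was 0.47, for Usp18, whose log2 fold change was 0.69 larger at 12 weeks. The point estimate, to 2 decimals, was larger at 12 weeks for 30 of 41 members, among them 10 of 11 type I genes, 6 of 6 regulators and 5 of 11 GTPases. This count rested on knockout replicate 2 at 12 weeks: without it 15 of 41 were larger at 12 weeks, among them 4 of 11 type I genes, 5 of 6 regulators and 1 of 11 GTPases. Without any other single library the count was 25 to 33. Precision was lower at 12 weeks, where the standard error was larger for 37 of 41 members, with a median of 0.27 against 0.16 at 2 weeks. Over all tested genes it was larger at 12 weeks for 60.4%. The 12-week libraries were also shallower.

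**Figure D5:**
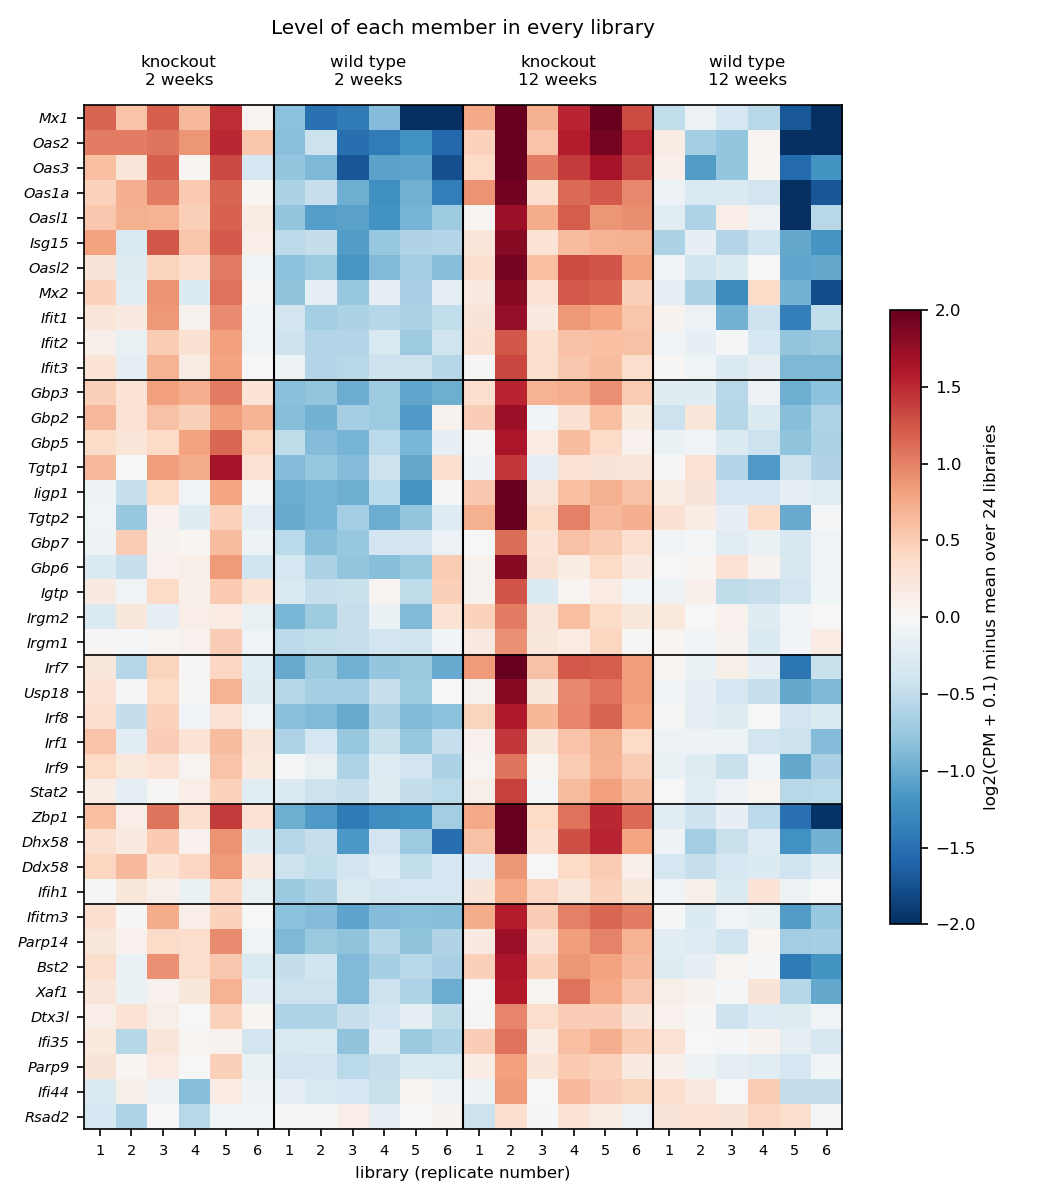
Level of each member (rows, by role class) in each of the 24 libraries (columns, replicate numbers below), as log2(CPM + 0.1) minus the mean over all libraries, red above and blue below that mean. Knockout replicate 2 at 12 weeks is the darkest red column, among the wild-type columns at 12 weeks replicates 5 and 6 are the darkest blue for most type I genes.

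Interferon transcripts themselves were hardly seen. Of 20 listed type I and type III ligand genes, 16 had 0 counts in all 24 libraries, where 3 counts would correspond to 0.00759 CPM over all libraries together. Ifnb1, Ifnab, Ifnk and Ifnz had 2, 4, 9 and 2 counts in total. Ifng had 10 counts in knockout (4 libraries) and 2 in wild type (2 libraries) at 2 weeks, and 12 counts in knockout (4 libraries) and 3 in wild type (3 libraries) at 12 weeks. None of these was tested, and at this depth the absence of the ligands cannot be shown. This limit takes in counting error alone, because PCR copies are not separate molecules.

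Of the receptors, 5 of 6 were higher at 2 weeks, against 18.2% of all tested genes, and 6 of 6 at 12 weeks, against 20.7%. The interferon gamma receptor genes Ifngr1 and Ifngr2 had log2 fold changes of 1.03 ± 0.09 and 1.03 ± 0.11 at 2 weeks and 0.96 ± 0.13 and 0.77 ± 0.10 at 12 weeks. The type I receptor genes Ifnar1 and Ifnar2 had 0.40 ± 0.06 and 0.58 ± 0.09 at 2 weeks and 0.45 ± 0.07 and 0.53 ± 0.09 at 12 weeks. Among 7 kinases and transcription factors 3 were higher at each duration. Irf3, the factor that starts interferon transcription and is not itself an interferon target, had log2 fold changes of 0.08 ± 0.09 (adjusted p = 0.54) at 2 weeks and 0.02 ± 0.08 (adjusted p = 0.90) at 12 weeks.

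Over all pathway lists 32 of 54 genes were tested. Of these 22 were higher and none lower at 2 weeks, and 22 were higher and 1, the adaptor Ticam1, was lower at 12 weeks. Among all tested genes 18.2% were higher at 2 weeks and 20.7% at 12 weeks. Socs3, a feedback inhibitor of cytokine receptors, differed most. It had 22.4, 31.4 and 39.9 CPM in knockout, against 2.01, 3.14 and 3.91 CPM in wild type at 2 weeks, and 24.3, 26.9 and 38.6 CPM in knockout, against 2.26, 3.60 and 5.56 CPM in wild type at 12 weeks. The groups were far apart, with log2 fold changes of 3.40 ± 0.18 (adjusted p = 2.5e-09) and 2.92 ± 0.18 (adjusted p = 1.4e-07). Tmem173, or STING, the adaptor of DNA sensing, had 11.2, 15.4 and 21.5 CPM in knockout, against 1.66, 3.13 and 3.82 CPM in wild type at 2 weeks, and 11.1, 13.9 and 22.9 CPM in knockout, against 2.44, 3.16 and 5.76 CPM in wild type at 12 weeks. Its groups did not overlap, and its log2 fold change was 2.49 ± 0.20 (adjusted p = 9.9e-08) and 2.13 ± 0.26 (adjusted p = 3.9e-05). Cgas, the DNA sensor that activates it, had 1.57, 2.83 and 3.73 CPM in knockout, against 0.416, 0.981 and 1.37 CPM in wild type at 2 weeks, and 2.23, 3.57 and 5.07 CPM in knockout, against 0.406, 0.902 and 1.76 CPM in wild type at 12 weeks. Here too knockout lay above wild type in full, with log2 fold changes of 1.57 ± 0.26 (adjusted p = 0.00012) and 1.78 ± 0.35 (adjusted p = 0.0010). Tlr9, an endosomal receptor of DNA, had 2.35, 3.48 and 4.19 CPM in knockout, against 0.537, 0.720 and 0.829 CPM in wild type at 2 weeks, and 3.35, 4.27 and 12.7 CPM in knockout, against 0.788, 1.61 and 2.15 CPM in wild type at 12 weeks. Again the groups stood apart, and the log2 fold change was 2.28 ± 0.20 (adjusted p = 1.6e-07) and 1.99 ± 0.36 (adjusted p = 0.00064). Tlr7, the endosomal receptor of single-stranded RNA, had 3.71, 5.27 and 8.03 CPM in knockout, against 1.48, 1.66 and 2.74 CPM in wild type at 2 weeks, and 4.04, 5.22 and 13.5 CPM in knockout, against 1.42, 2.40 and 4.49 CPM in wild type at 12 weeks. The groups overlapped at 12 weeks, and the log2 fold change was 1.60 ± 0.22 (adjusted p = 2e-05) and 1.41 ± 0.36 (adjusted p = 0.0066).

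Among other interferon gamma targets, Ciita, the switch of MHC class II transcription, had 15.9, 20.5 and 22 CPM in knockout, against 5.46, 7.09 and 8.34 CPM in wild type at 2 weeks, and 31.4, 39.9 and 68.9 CPM in knockout, against 8.49, 10.2 and 14.1 CPM in wild type at 12 weeks. Its groups did not overlap, and the log2 fold change was 1.52 ± 0.12 (adjusted p = 5.6e-08) and 2.04 ± 0.18 (adjusted p = 4.1e-06). Cxcl10 and Cxcl9 encode chemokines that attract activated T cells. Cxcl10 had 9.75, 14.4 and 18.5 CPM in knockout, against 2.34, 3.06 and 4.49 CPM in wild type at 2 weeks, and 9.97, 11.6 and 18.3 CPM in knockout, against 2.23, 4.13 and 5.37 CPM in wild type at 12 weeks. Its groups did not overlap, with log2 fold changes of 2.17 ± 0.18 (adjusted p = 7.1e-08) and 1.71 ± 0.21 (adjusted p = 2.7e-05). Cxcl9 had 1.77, 2.86 and 3.57 CPM in knockout, against 0.939, 1.26 and 2.67 CPM in wild type at 2 weeks, and 1.56, 3.90 and 41 CPM in knockout, against 1.03, 1.88 and 4.69 CPM in wild type at 12 weeks. Its groups overlapped at both durations. It was called at 2 weeks, with 0.91 ± 0.27 (adjusted p = 0.013), but not at 12 weeks, with 2.17 ± 0.85 (adjusted p = 0.064). The interaction was called for 0 of the 32 pathway genes.

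Proximal tubule markers were lower in knockout for 5 of 7 genes at 2 weeks and 6 of 7 at 12 weeks. For comparison, 2323 of all 17286 tested genes were lower and 3144 higher at 2 weeks. At 12 weeks 3068 were lower and 3585 higher. Of 7 markers of other nephron segments 4 were lower at 2 weeks, and 2 were lower and 1 higher at 12 weeks. Their summed level was 5070 to 6170 CPM in knockout, against 6690 to 8200 CPM in wild type, at 2 weeks, and 2580 to 5480 CPM in knockout, against 3730 to 4850 CPM in wild type, at 12 weeks. Markers of several other cell types were higher in knockout. All 8 macrophage markers were higher in knockout at both durations, and their summed level was 276 to 599 CPM in knockout, against 123 to 159 CPM in wild type at 2 weeks, and 349 to 693 CPM in knockout, against 116 to 232 CPM in wild type at 12 weeks. Of 10 T and natural killer cell markers 7 were tested and 5 were higher at each duration, with summed levels of 9.69 to 18.7 CPM in knockout, against 4.14 to 8.57 CPM in wild type at 2 weeks, and 15.7 to 69.3 CPM in knockout, against 3.85 to 9.46 CPM in wild type at 12 weeks. The 6 fibroblast markers were all higher at both durations, at 498 to 1370 CPM in knockout, against 123 to 175 CPM in wild type at 2 weeks and at 541 to 1420 CPM in knockout, against 115 to 400 CPM in wild type at 12 weeks. Of 5 B cell markers 1 was higher at 2 weeks and 0 at 12 weeks. Their 12-week log2 fold changes were 1.85 to 2.36, with SE of 0.88 to 1.24. At 12 weeks they summed to 3.53 to 135 CPM in knockout (median 8.38 CPM), against 1.68 to 26.6 CPM in wild type (median 2.55 CPM). The highest values came from single libraries, knockout replicate 2 (next 12.8 CPM) and wild-type replicate 1 (next 5.31 CPM). Of the 5 markers of plasmacytoid dendritic cells, which make type I interferon, 4 were tested. At 2 weeks 1 was higher and 1 lower, and the sum of all 5 was 3.31 to 4.41 CPM in knockout, against 3.27 to 3.97 CPM in wild type. At 12 weeks 2 were higher and 1 lower, at 4.11 to 8.53 CPM in knockout, against 3.52 to 5.60 CPM in wild type. The lower marker was Cox6a2 each time. Its mean was 0.40 CPM in knockout, against 1.27 CPM in wild type, at 2 weeks, and 0.858 against 2.35 CPM at 12 weeks. The means of Siglech, Ccr9, Cd300c and Pacsin1 were higher in knockout at both durations, so the sum mixes opposite directions. Of the 5 endothelial markers 0 were higher and 2 lower at each duration, with summed levels of 220 to 268 CPM in knockout, against 255 to 341 CPM in wild type at 2 weeks and 223 to 352 CPM in knockout, against 294 to 422 CPM in wild type at 12 weeks. All 4 tested of 6 neutrophil markers were higher at both durations, while Ly6g, which defines these cells, was at 0 in both groups at 12 weeks. The summed markers of perirenal fat and adrenal at 12 weeks reached 66.7 CPM in knockout replicate 4, against at most 6.83 CPM in wild type. The part of any of these cell types in the member values was not tested.

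Several members share sequence with other genes, so that their counts are uncertain. Of all 50-base stretches of their transcripts, 81.2% for Tgtp1 and 86.6% for Tgtp2 also occur in other genes, chiefly in each other and in Gm12185, and the same holds for 70.7% of Gbp6, 57.6% of Oas1a (with Oas1g and Oas1b) and 51.2% of Ifit3 (with Ifit3b). Annotated overlaps on the same strand cover 29.0% of the exonic bases of Gbp6 (with Gm43302) and 11.3% of those of Gbp7 (with Gm43802). The annotated Irgm2 gene overlaps Igtp on the same strand, over 8.0% of the exonic bases of Igtp. Whether counting used strand is not known, so reads of Ifi35 cannot be told apart from those of Gm11626 on the other strand, over 16.8% of its exonic bases. Smaller overlaps with the opposite strand, up to 9.4%, touch Parp9 and Dtx3l with each other and Oasl1, Gbp2, Irf1, Irf7, Usp18 and Dhx58 with other genes.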

How the data were processed

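The authors deposited 1 file of raw read counts per Ensembl gene for each of 24 kidney libraries, without normalization. Per the labels' protocols, total RNA came from a Maxwell RSC simplyRNA extraction, and NEBNext Ultra reagents made the libraries. Per the submitters' processing notes, fastp, STAR 2.5 and HTSeq 0.6.1 were used with build mm10. The sources used here give neither their options and strand setting nor the annotation release. Symbols and positions came from GENCODE M21, which matched 54495 of 54532 identifiers, and the 37 others held at most 0.00528% of a library.

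Counts were joined by identifier and tested two-sided by robust quasi-likelihood in edgeR 4.0.16 (R 4.3.3) after TMM scaling, with p-values adjusted by Benjamini-Hochberg over 17286 genes and a threshold of 0.05. Genes were kept by filterByExpr (minimum count 10, minimum total 15) over the 4 groups. Each genotype comparison used the 12 libraries of its duration and the interaction all 24. The SE is the absolute log2 fold change over the square root of F. Class levels are means of log2 CPM with a prior count of 2. Promoters and motif searches used RefSeq sequence of build GRCm38.p6 on both strands. No pair of libraries within a group was close enough to be a duplicate: the smallest chi-square per gene was 5.95 over 60 pairs. The fits were tested on simulated data.

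The members and lists were chosen with earlier results of these data known. Values per library are given for the 2 members with the highest and the 1 with the lowest mean log2 fold change of each class, every member not called, and the 8 called pathway genes with the largest mean change. Another gene that the rule names is not reported here. Isg15 and Irf3 were added after their values were seen. The alternatives tried were scaling by RLE or upper quartile, DESeq2 1.42.0, other filters, calls only from a log2 fold change of 1, a block for the replicate number, 1 fit of all libraries, removal of members with an opposite-strand overlap, each library left out in turn, and other motif settings. Depth was 11.3 to 34.1 megacounts per library, and the lower depth at 12 weeks limits genes at low CPM.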

Additional observations from a re-analysis of the deposited data

Results flagged for a closer look

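Of 184 values tested for a library far from the other 5 of its group, 31 stood out. Chance alone marks about 1 in 20 groups. Of these, 17 were in knockout at 12 weeks, 0 in wild type at 12 weeks, 4 in knockout at 2 weeks and 10 in wild type at 2 weeks. The values of a library are not independent of each other.

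All 17 in knockout at 12 weeks were high values of replicate 2. In CPM, with the next highest knockout library after it, they were Iigp1 at 69.7 (next 26.4), Irf7 at 99.0 (next 49.2), Irf1 at 68.6 (next 42.2), Bst2 at 60.1 (next 35.9), Ifit3 at 58.5 (next 35.3), Ifit2 at 52.4 (next 33.7), Gbp2 at 49.7 (next 22.6), Igtp at 37.4 (next 17.5) and Zbp1 at 29.1 (next 12.0). The others were Tgtp2 at 27.7 (next 11.4), Ifit1 at 25.7 (next 13.7), Gbp5 at 18.7 (next 9.18), Isg15 at 18.0 (next 8.34), Gbp6 at 12.5 (next 4.60), Tgtp1 at 12.5 (next 5.58) and Oas3 at 8.86 (next 3.60). The GTPase class level of this library was 5.16, against 4.12 in the next.

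In knockout at 2 weeks, replicate 5 was far above the rest for Irgm1 at 70.2 CPM (next 53.1), Parp14 at 64.5 (next 43.7), Tgtp1 at 14.8 (next 8.32) and Gbp6 at 6.32 (next 3.76). In wild type at 2 weeks, replicate 6 was far above the rest for Irgm1 at 47.8 CPM (next 38.2), Gbp2 at 15.7 (next 9.36), Tgtp1 at 5.77 (next 3.46), Usp18 at 5.03 (next 3.67), Gbp6 at 4.97 (next 2.67) and Tgtp2 at 4.72 (next 3.48), and for the GTPase class level, at 3.64 (next 3.12). Wild-type replicate 1 was high for Ifit3 at 21.5 CPM (next 17.2). Wild-type replicate 3 was low for Ifitm3, at 20.2 CPM against 23.1 in the next lowest, and for the level of the other effectors, at 3.93 against 4.06.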

How the results depend on the processing

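A minimum log2 fold change of 1 cut the counts by construction, to 17 members at 2 weeks and 22 at 12 weeks, and to 4 and 5 GTPases. Under the other settings the counts stayed within 1.5 times: 27 to 37 members at 2 weeks and 28 to 38 at 12 weeks, where the lowest counts come from removing 9 members with an opposite-strand overlap. No member changed direction under RLE, upper-quartile or DESeq2 scaling. Without single libraries the counts were 36 to 39 at 2 weeks, 35 to 38 at 12 weeks, 11 type I genes throughout, and 8 to 11 and 7 to 10 GTPases. The type I medians were then 1.30 to 1.57 and 1.35 to 1.69, and those of the GTPases 0.62 to 0.86 and 0.52 to 0.96. The interaction stayed at 0 throughout.

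Replicate numbers do not pair the libraries: same-numbered deviations correlated between -0.104 and 0.171. With a replicate block the counts were 37, 38 and 0 for both durations and the interaction, 11 and 11 type I genes, and 9 and 10 GTPases.

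Single calls that changed were few. Igtp passed under DESeq2 (adjusted p = 0.040 and 0.046) and the block at both durations, at 2 weeks with upper-quartile scaling (adjusted p = 0.045) or a mean of at least 1 CPM (adjusted p = 0.049) and without knockout replicate 2 or wild-type replicate 4 or 6, and at 12 weeks without knockout replicate 3. Gbp6 and Irgm2 passed at 2 weeks without wild-type replicate 6 (adjusted p = 0.024 and 0.0034). The 12-week call of Tgtp1 was lost when knockout replicate 2, 4, 5 or 6 or wild-type replicate 3, 4, 5 or 6 was left out in turn, and in the fit of all 24 (adjusted p = 0.052), and the 2-week call of Tgtp2 in that fit of all 24 (adjusted p = 0.054). Xaf1 missed at 12 weeks without a filter (adjusted p = 0.051), and Irgm1 without knockout replicate 5 (adjusted p = 0.050) or wild-type replicate 4 (adjusted p = 0.051). Rsad2 passed as lower at 2 weeks under the block (-0.25, adjusted p = 0.037) and without knockout replicate 3 (-0.29, adjusted p = 0.037). The cause of these changes was not tested.

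Over the 150 bases before the start, 15 members held a response element core and 9 a gamma-activated site. In the whole promoter window 16 held the core followed by C.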
